A study of Homo sapiens with 6 samples.

Results

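The 10 genes described here make, degrade or sense prostaglandin E2: PLA2G4A, PTGS1, PTGS2, PTGES, PTGES2, PTGES3, HPGD, PTGR1, PTGER2 and PTGER4. They were taken by gene symbol from tables that held 23245 usable rows, and each of the 10 symbols matched 1 row. Expression was measured by RNA sequencing in untreated L3.6pl cells, a line derived from human pancreatic cancer. The parental group (3 libraries, genotype WT) was compared with cells labelled ARID1A-deficient and titled ARID1Ako (3 libraries), where ARID1A encodes a DNA-binding subunit of SWI/SNF chromatin remodellers. No other allele or agent is named for either group, and the labels do not say how many clones the deficient libraries stand for or how the gene was disrupted. Nor do the labels say whether the triplicates came from separate cultures, so p-values measure only the spread between these libraries, which may be technical.

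Prostaglandin synthesis starts when a phospholipase A2 cuts arachidonic acid from membrane lipids. A cyclooxygenase turns the free acid into prostaglandin H2, and a terminal synthase turns that into prostaglandin E2. Prostaglandin E2 leaves the cell and acts on EP receptors, of which EP2 and EP4 raise cyclic AMP, until uptake and oxidation end the signal. In pancreatic and other gastrointestinal cancers the inducible cyclooxygenase PTGS2 is known as a source of tumour prostaglandin E2.

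Of the 10 genes, 7 were expressed highly enough to be tested. Among these, 3 were lower in ARID1A-deficient cells and 0 higher, against 8.11% and 7.82% of all tested genes. The 3 were PLA2G4A, which releases arachidonic acid, PTGES, the inducible prostaglandin E synthase, and PTGER4, the EP4 receptor. Their mean levels were 3.48-fold, 2.72-fold and 3.44-fold lower than in parental cells. PTGS2 was 1.56-fold lower without passing the test. The abundant genes PTGES2, PTGES3 and PTGR1 did not pass the test either, and PTGS1, PTGER2 and HPGD were close to 0 in both groups.

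Levels are given as FPKM, which scales fragment counts by transcript length and by library. A fold is the ratio of group means in FPKM. The test (limma with Benjamini-Hochberg adjustment and a threshold of 0.05 on the adjusted p) was run on log2(FPKM + 1), a scale that understates changes of low genes. A mean of at least 0.5 FPKM was required for testing, and 7 of the 10 members and 12826 genes in all met it. In the whole comparison 15.9% of tested genes were called, 7.82% higher and 8.11% lower in ARID1A-deficient cells. The 1040 genes called lower became 438 without deficient library 3 and 2104 without parental library 2, and the 1003 called higher became 522 and 2009. Among the 7 tested members, 3 were called lower and 0 higher in limma. At an unadjusted p under 0.05 the counts were 4 lower and 0 higher, and the fit without trend and robust moderation gave the same 3 and 0. The 3 called members also lay past a 2-fold change on the log2 scale, as did 1.26% of all tested genes in the lower direction. All 3 deficient libraries lay below all 3 parental ones for 4 of the 7 tested members, as they did for 18.6% of all tested genes. The median log2 fold change of the 7 tested members was -0.326, against -0.0146 over all tested genes.

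**Figure D1:**
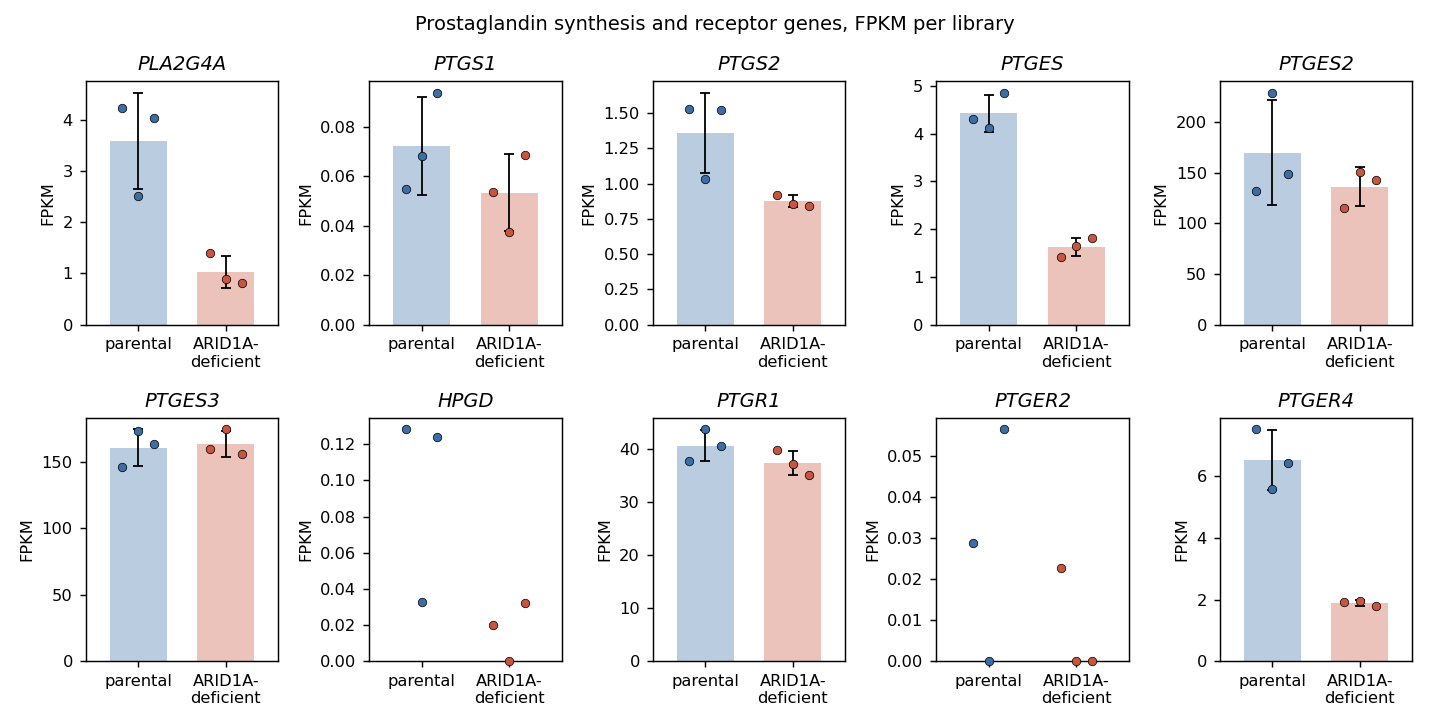
FPKM (vertical axes, each starting at 0) of the 10 members in 3 parental (blue) and 3 ARID1A-deficient (red) libraries. Points are libraries 1, 2 and 3 from left to right, bars are means and whiskers SDs, left out for HPGD and PTGER2 because a library is listed at 0. All 3 deficient points lie below all 3 parental points for PLA2G4A, PTGS2, PTGES and PTGER4. For HPGD, near 0, they do so only by 0.0321 FPKM in deficient library 3 against 0.0327 FPKM in parental library 2.

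The targeted gene, ARID1A, measured 11.8, 6.76 and 9.42 FPKM in parental and 3.55, 3.28 and 3.61 FPKM in deficient libraries. It was 2.68-fold lower with no overlap (log2 fold change -1.18, SE 0.18, adjusted p = 0.0061). The values summed to 576084 to 792187 FPKM per library, with 15635 to 16391 rows above 0. The tables state no fragment totals, so the depth behind a value is unknown. Relative depth, estimated from the spacing of the lowest values, was 0.729 to 1.28 times that of parental library 1. Parental library 2 (relative depth 0.783) stood apart within its group: of the parental libraries it was lowest for PLA2G4A, PTGS2, PTGES, PTGER4 and HPGD and highest for PTGES2, PTGES3 and PTGR1. Relative to each gene's mean over the 6 libraries, its values also fell off most with transcript length, with a slope of -0.0294 log2 units per doubling of length against -0.00541 to 0.016 in the other 5 libraries.

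The cells carried epithelial keratins, with KRT7 at 1875 to 3717 FPKM and KRT19 at 1014 to 2705 FPKM. The 10 ductal and epithelial markers summed to 6309 to 9865 FPKM in parental and 4579 to 5791 FPKM in deficient libraries. Of 9 tested, 2 rose (SOX9 and CLDN4), 0 fell in limma (4 at an unadjusted p under 0.05) and 7 did not pass, and the median change was -0.41 on the log2 scale. The part of these markers in the results on prostaglandin genes was not tested. Prostaglandins are also made by macrophages, mast cells, platelets, fibroblasts and endothelium, and most of their markers were at or near 0. Of 17 macrophage, mast cell and platelet markers, 9 were listed at 0 in every library, among them CD163, MRC1, TYROBP, TPSAB1 and CPA3, and 2 could be tested. Their summed level was 9.33 to 11 FPKM in parental and 7 to 8.76 FPKM in deficient libraries, most of it CD68, a lysosomal gene that other cells also express. Of 13 fibroblast and endothelial markers, DCN and LUM were listed at 0 throughout and 2 could be tested. Their sum was 9.01 to 10.5 FPKM in parental and 9.18 to 9.98 FPKM in deficient libraries, most of it the endothelial cadherin CDH5 at 6.22 to 8.09 FPKM, which did not pass the test. CD68 and PECAM1 were the only genes called in these lists, both lower (adjusted p = 0.0346 and 0.0254), and the calls ended without 4 and 5 of the 6 single libraries. In bulk RNA, fewer cells of a type and less RNA per cell cannot be told apart.

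The promoters of the 3 genes that fell and of PTGS2 are shown to set the genes that fell beside the inducible cyclooxygenase of the same pathway. Each is the RefSeq window of GRCh38.p14 from 250 bases before to 50 bases after the annotated start, and the deposited values were made on another build. Capitals mark matches to motifs searched on both strands.
PLA2G4A (chr1:186828699-186828998, plus strand): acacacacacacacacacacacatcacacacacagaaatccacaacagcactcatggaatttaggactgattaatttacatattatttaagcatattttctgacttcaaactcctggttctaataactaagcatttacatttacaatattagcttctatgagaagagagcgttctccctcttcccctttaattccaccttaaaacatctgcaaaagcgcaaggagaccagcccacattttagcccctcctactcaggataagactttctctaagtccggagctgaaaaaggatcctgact
PTGS2 (chr1:186680374-186680673, minus strand): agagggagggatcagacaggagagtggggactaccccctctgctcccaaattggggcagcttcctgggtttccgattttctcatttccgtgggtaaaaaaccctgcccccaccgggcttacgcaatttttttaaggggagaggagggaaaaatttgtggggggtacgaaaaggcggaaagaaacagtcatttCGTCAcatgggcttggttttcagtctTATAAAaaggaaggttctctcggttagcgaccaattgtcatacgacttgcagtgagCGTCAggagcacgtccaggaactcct
PTGES (chr9:129752993-129753292, minus strand): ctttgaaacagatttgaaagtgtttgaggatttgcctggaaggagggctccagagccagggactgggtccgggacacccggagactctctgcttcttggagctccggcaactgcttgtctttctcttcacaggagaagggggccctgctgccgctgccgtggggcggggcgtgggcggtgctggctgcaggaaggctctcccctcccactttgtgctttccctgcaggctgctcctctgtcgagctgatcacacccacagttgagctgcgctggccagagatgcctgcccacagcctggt
PTGER4 (chr5:40679665-40679964, plus strand): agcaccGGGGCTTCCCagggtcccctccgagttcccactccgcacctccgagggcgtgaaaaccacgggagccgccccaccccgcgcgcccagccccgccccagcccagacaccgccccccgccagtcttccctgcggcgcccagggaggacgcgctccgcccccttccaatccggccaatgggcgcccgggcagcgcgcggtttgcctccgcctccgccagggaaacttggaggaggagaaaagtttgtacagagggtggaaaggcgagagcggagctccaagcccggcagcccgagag

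In PTGS2 the capitals are TATAAA from 32 bases before the start, and CGTCA, which reads TGACG on the other strand, from 58 bases before the start and again at base 25 after it. TGACG is the first part of the cyclic AMP response element TGACGTCA. In PTGER4 they are a match to the RELA motif, bound by NF-kB, from 244 bases before the start. The PLA2G4A and PTGES windows held none of the motifs searched. These were TGACGTCA, found in 1.85% of 35116 RefSeq promoter windows of this length, TGACG (24.6%), TGANTCA for AP-1 (7.71%), the E-box CACGTG (7.26%), GGAATG for TEAD (14%), TATAAA (11.5%) and the RELA motif (9.08%). TGACG overlaps TGACGTCA. The 4 windows differed widely in base composition, from 39.7% G and C with 3 CpG in PLA2G4A to 72% with 30 CpG in PTGER4, with 50.7% and 12 CpG in PTGS2 and 61.7% and 10 CpG in PTGES. The median over all windows was 58.7% and 14 CpG. No motif searched was thus shared by the 3 genes that fell. A match is a string of letters, and binding was not measured.

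Arachidonic acid release was represented by PLA2G4A, the calcium-dependent cytosolic phospholipase A2. Its levels in parental libraries 1, 2 and 3 were 4.23, 2.52 and 4.02 FPKM, against 1.39, 0.890 and 0.814 FPKM in deficient libraries 1, 2 and 3. The lowest parental library was thus above the highest deficient one. Group means were 3.59 ± 0.935 FPKM in parental and 1.03 ± 0.316 FPKM in deficient cells (SD, n = 3 each), and the log2 fold change was -1.16 (SE 0.19, adjusted p = 0.00732). Its adjusted p rose to 0.0445 without deficient library 3 and was 0.0117 or less in the 7 alternative settings that tested it with all libraries.

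The cyclooxygenases differed in level by an order of magnitude. PTGS1, the constitutive enzyme, measured 0.0548, 0.0684 and 0.0939 FPKM in parental and 0.0537, 0.0376 and 0.0688 FPKM in deficient libraries, which overlapped. After scaling for relative depth these 6 values lay at 4, 4 and 7 and at 5, 2 and 4 steps of a common size (largest deviation 0.09 of a step), so they may rest on few fragments each. PTGS2, the inducible enzyme, measured 1.53, 1.03 and 1.52 FPKM in parental and 0.922, 0.859 and 0.843 FPKM in deficient libraries. The deficient libraries lay close together and below every parental library, with parental library 2 the nearest to them.

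PTGS2 did not pass the test: its log2 fold change was -0.33 (SE 0.11, adjusted p = 0.103, unadjusted p = 0.0237 in limma), with a 95% interval from -0.59 to -0.06. Parental library 2 moved this call. Without it the log2 fold change was -0.43 and passed (adjusted p = 0.0141), and without any other single library the adjusted p was 0.192 to 0.307. PTGS2 also passed with quantile normalization (adjusted p = 0.0419) and with the length slope of each library as a covariate (adjusted p = 0.0433). The ratio of PTGS2 to PTGS1 within a library was 27.9, 15.1 and 16.2 in parental and 17.2, 22.8 and 12.3 in deficient libraries. These ratios overlapped, but with PTGS1 at 2 to 7 steps per library they cannot show whether the balance of the 2 enzymes differed.

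Among tested genes in RefSeq order, PLA2G4A is a direct neighbour of PTGS2, with RGS2 on the other side of PLA2G4A. Only the order was used, so neighbours named here may lie far apart. RGS2, a regulator of G protein signalling that was named after its values were seen, went the other way. It measured 5.14, 5.46 and 5.98 FPKM in parental and 23.9, 23.3 and 22 FPKM in deficient libraries, 4.17-fold higher (log2 fold change 1.88, adjusted p = 2.93e-05). C1orf27, on the far side of PTGS2, had a log2 fold change of 0.05 (adjusted p = 0.852). DAB2, an endocytic adaptor on one side of PTGER4 that was also named after its values were seen, rose by 0.60 on the log2 scale (adjusted p = 0.00491). Its parental mean of 0.364 FPKM was below the minimum for testing, which it met only through its deficient libraries. TTC33, on the other side of PTGER4, had a log2 fold change of -0.25 (adjusted p = 0.199). Over the 20 tested genes on each side of each member, the median log2 fold change was -0.0655 around PLA2G4A, -0.0483 around PTGS2, -0.0907 around PTGES and -0.0484 around PTGER4. Of these 40 genes, 4 were called higher and 6 lower around PLA2G4A, 4 and 7 around PTGS2, 0 and 3 around PTGES, and 3 and 2 around PTGER4. Over all tested genes, 7.82% were called higher and 8.11% lower. The windows around PLA2G4A and PTGS2 hold mostly the same genes, and PLA2G4A is itself among the 7 called lower around PTGS2.

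Terminal synthesis of prostaglandin E2 is carried out by PTGES, the membrane enzyme that is induced together with PTGS2. Parental libraries held 4.30, 4.12 and 4.86 FPKM of PTGES, and deficient libraries 1.43, 1.64 and 1.81 FPKM. Each group was tight and the gap between them was wider than either range. Group means were 4.42 ± 0.385 FPKM in parental and 1.63 ± 0.195 FPKM in deficient cells (SD, n = 3 each). On the log2 scale the difference was -1.05 (SE 0.11, adjusted p = 0.00105).

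PTGES2, a second membrane-associated protein named as a prostaglandin E synthase, was far more abundant. It measured 132, 229 and 148 FPKM in parental and 115, 151 and 143 FPKM in deficient libraries, which overlapped because deficient library 2 reached above parental libraries 1 and 3. Its log2 fold change was -0.28 with a 95% interval from -0.83 to 0.26 (adjusted p = 0.473), so the data do not separate no change from a decrease of over 1.5-fold. Without parental library 2, its highest value, the log2 fold change was -0.05. The library kit does not mark strand, and reads of the antisense gene PTGES2-AS1 cannot be told apart from those of PTGES2.

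PTGES3, the cytosolic synthase, is also known as p23, a co-chaperone of HSP90. It measured 146, 173 and 163 FPKM in parental and 160, 174 and 156 FPKM in deficient libraries, with ranges that coincided. The log2 fold change was 0.03 with a 95% interval from -0.27 to 0.32 (adjusted p = 0.92), and its sign turned in 3 of 14 alternatives. PTGES3 has pseudogene copies such as PTGES3P1 that may share its reads. Set against PTGES within a library, PTGES3 was 33.9, 42 and 33.5 times as abundant in parental and 112, 106 and 85.8 times in deficient libraries, and PTGES2 was 30.7, 55.6 and 30.6 times against 80.4, 91.9 and 78.8 times. Both ratios separated the groups without overlap and do not depend on library scaling. The inducible synthase was the smallest of the 3 in every library.

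**Figure D2:**
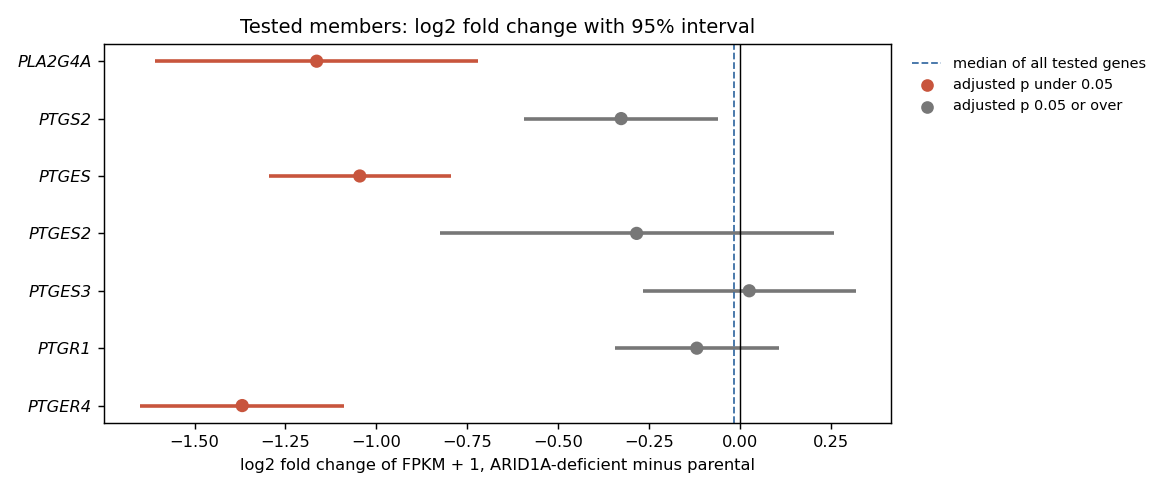
Log2 fold change (horizontal axis) of the 7 tested members with its 95% interval from limma, in the order of the pathway from PLA2G4A to PTGER4. Red marks an adjusted p under 0.05, grey 0.05 or over, and the dashed line is the median of all tested genes (-0.0146). The intervals of PLA2G4A, PTGES and PTGER4 end at -0.72, -0.79 and -1.09.

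Breakdown of prostaglandin E2 begins with HPGD, the hydroxyprostaglandin dehydrogenase, and PTGR1 then reduces the product. Parental libraries held 0.128, 0.0327 and 0.124 FPKM of HPGD, against 0.0201, 0 and 0.0321 FPKM in the deficient ones. Scaled for relative depth, these values stood at 5, 1 and 5 and at 1, 0 and 1 times the smallest step (largest deviation 0.051 of a step). At this depth a difference could not be established. The fit with no filter on low values gave a log2 fold change of -0.105 (adjusted p = 0.155, unadjusted p = 0.0366 in limma). At such levels log2(FPKM + 1) compresses changes, so this fit cannot show that the groups were alike. PTGR1, a reductase that also acts on leukotriene B4, measured 37.6, 43.6 and 40.5 FPKM in parental and 39.7, 37.1 and 35.1 FPKM in deficient libraries. Its log2 fold change was -0.12 with a 95% interval from -0.34 to 0.11 (adjusted p = 0.472).

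The receptors were PTGER2 and PTGER4, which both couple to the stimulatory G protein. Parental libraries held 7.50, 5.57 and 6.43 FPKM of PTGER4, and deficient libraries 1.92, 1.96 and 1.79 FPKM. The deficient values lay close together, and the groups were well apart. Group means were 6.50 ± 0.968 FPKM in parental and 1.89 ± 0.0877 FPKM in deficient cells (SD, n = 3 each). On the log2 scale the difference was -1.37 (SE 0.12, adjusted p = 0.000505). On the log2(FPKM + 1) scale this decrease ranked 186 among the 12826 genes tested, while by the ratio of means PTGER4 (3.44-fold) and PLA2G4A (3.48-fold) were nearly alike.

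PTGER2 was listed at 0.0288, 0 and 0.0564 FPKM in parental and 0.0226, 0 and 0 FPKM in deficient libraries, or 1, 0 and 2 and 1, 0 and 0 times its smallest step. The other EP receptors were as scarce. PTGER1 was above 0 in 2 of 6 libraries, reaching 0.135 FPKM, and PTGER3 in 2 of 6, reaching 0.0406 FPKM. PTGER4 was thus the EP receptor transcript measurable in these cells, and the one that fell.

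Because FPKM is scaled to length, levels can be set side by side across genes. In parental cells PTGES2 and PTGES3 were highest and overlapped with each other, followed by PTGR1 and PTGER4. PTGES and PLA2G4A came next, and then PTGS2. The ranges of PTGES and PLA2G4A overlapped, since PLA2G4A in parental library 1 (4.23 FPKM) exceeded PTGES in parental library 2 (4.12 FPKM). Within each parental library PTGES was the higher of these 2. HPGD, PTGS1 and PTGER2 were last. In deficient cells PTGES3 lay above PTGES2 in each library. PTGER4 and PTGES overlapped there, as did PLA2G4A and PTGS2. On the level averaged over all 6 libraries, PTGES2 and PTGES3 stood at percentiles 94.1 and 94.5 of tested genes, PTGR1 at 78.9, PTGER4 at 29.9, PTGES at 23.4, PLA2G4A at 18.9 and PTGS2 at 8.63. These averages include the lowered values of the members that fell.

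The genes around this pathway were taken from 6 lists of prostanoid, phospholipase, arachidonate, lipoxygenase, cyclic AMP and PTGS2 regulator genes. Of 130 genes listed, 127 were in the tables and 75 could be tested, of which 9 rose, 10 fell and 56 did not pass. The 10 that fell became 5 without deficient library 3 and 17 without parental library 2. The share called lower (10 of 75) and the share called higher (9 of 75) can be read against the 8.11% and 7.82% over all tested genes. Of the 9 that rose, EPHX2 and CELF2 met the minimum of 0.5 FPKM only through their deficient libraries. The median log2 fold change of the 75 was -0.0264.

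**Figure D3:**
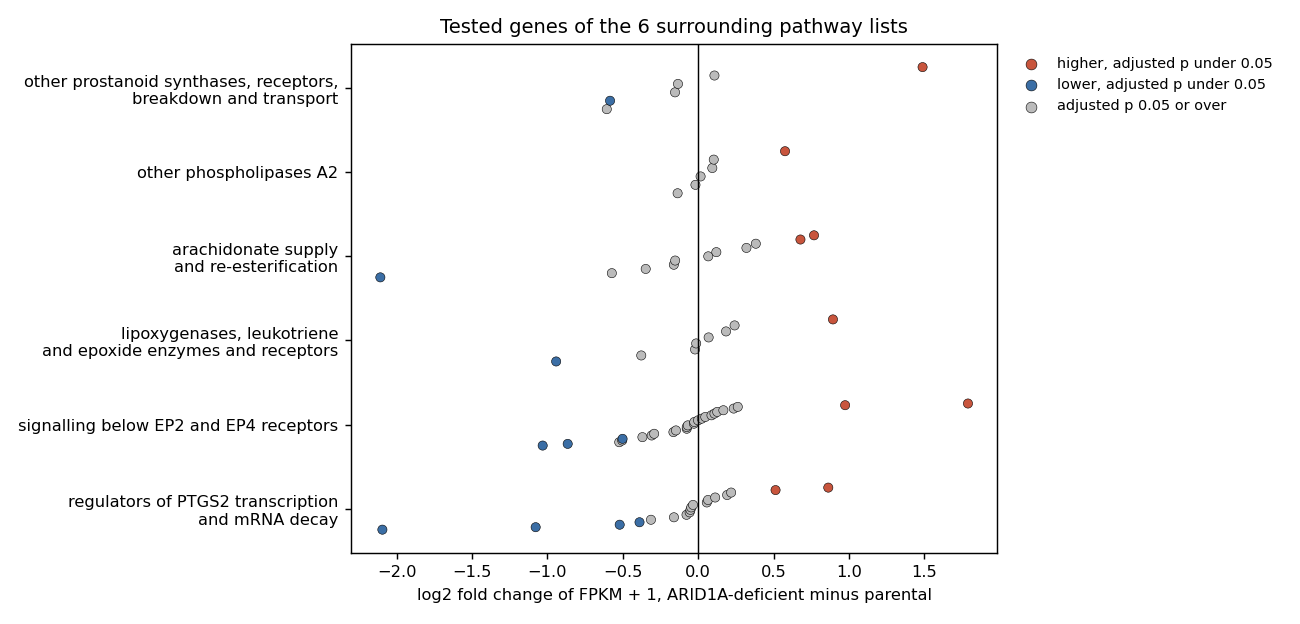
Log2 fold change (horizontal axis) of the tested genes in the 6 surrounding lists, 1 point per gene, spread vertically within a list only for legibility. Red and blue mark genes called higher and lower at an adjusted p under 0.05, and grey the rest. Each list straddles 0, with ACSL5 and FOS farthest to the left and PDE4B and AKR1C3 farthest to the right.

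Most other prostanoid genes were too low to test. Among these, the transporter ABCC4 was listed at 0.325, 0.193 and 0.182 FPKM in parental libraries. In deficient libraries it was higher without overlap, at 0.920, 0.526 and 0.597 FPKM, and it was named after its values were seen. Of the synthases and receptors of other prostaglandins and prostacyclin, HPGDS, PTGIS, PTGDR, PTGFR and PTGIR were listed at 0 in all 6 libraries. PTGDS reached 0.147 FPKM at most, PTGDR2 0.0482 FPKM and thromboxane synthase TBXAS1 0.166 FPKM. Of 6 tested genes, 1 rose, 1 fell and 4 did not pass. Their median change was -0.144 on the log2 scale. AKR1C3, which makes prostaglandin F2 alpha and also reduces steroids, measured 2.63, 4.67 and 3.64 FPKM in parental and 11.7, 13.7 and 10.3 FPKM in deficient libraries. It was 3.26-fold higher with no overlap (log2 fold change 1.49, SE 0.18, adjusted p = 0.00239). It is similar in sequence to AKR1C1 and AKR1C2, so its value is uncertain where reads are shared. FAM213B, a prostaglandin F synthase, was lower by 1.57-fold (adjusted p = 0.0353). That call ended without any single library but parental 2 (highest adjusted p = 0.117) and with quantile normalization (adjusted p = 0.0574).

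Other phospholipases A2 had 1 of 6 tested members higher and 0 lower in limma, with likewise 0 lower at an unadjusted p under 0.05. Their median change was 0.0544 on the log2 scale. PLA2G6, the calcium-independent enzyme, was 1.54-fold higher (adjusted p = 0.0489), and the call ended without 4 of 6 single libraries (highest adjusted p = 0.176). It also ended in 3 alternatives with all libraries: no filter on low values, a minimum mean of 3 FPKM, and no trend and robust moderation (highest adjusted p = 0.0653). The secreted enzyme PLA2G2A was listed at 0 in every library. PLA2G4C, another cytosolic form, was listed at 0 in the parental libraries and at 0.135, 0.118 and 0.143 FPKM in the deficient ones, too low to be tested and named after its values were seen.

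Genes of arachidonate supply and return to lipids included 11 tested members, of which 2 rose, 1 fell and 8 did not pass (median log2 fold change 0.0664). ACSL5, which activates long-chain fatty acids to acyl-CoA, measured 10.7, 10.6 and 10.5 FPKM in parental and 1.71, 1.67 and 1.69 FPKM in deficient libraries. It fell 6.27-fold with hardly any spread inside a group (log2 fold change -2.11, SE 0.08, adjusted p = 1.46e-05). Its relative ACSL1 rose 2.42-fold (adjusted p = 0.0149, and 0.0613 without deficient library 3). FADS2, the delta-6 desaturase on the route to arachidonic acid, rose 1.80-fold, with means of 2.92 ± 0.374 in parental and 5.26 ± 0.196 FPKM in deficient libraries (SD, n = 3 each, adjusted p = 0.00616).

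The lipoxygenase and epoxide branch held 8 tested genes: 1 rose, 1 fell and 6 did not pass (median log2 fold change 0.0276). The lipoxygenases themselves stayed at or below 0.697 FPKM in every library and were not tested. EPHX2, the soluble epoxide hydrolase that inactivates epoxides of arachidonic acid, rose 3.76-fold, with means of 0.452 ± 0.0475 in parental and 1.70 ± 0.166 FPKM in deficient libraries (SD, n = 3 each, adjusted p = 0.00104). The parental mean of EPHX2 was below the minimum of 0.5 FPKM, which it met only through its deficient libraries. EPHX1, the microsomal epoxide hydrolase, fell 1.97-fold (adjusted p = 0.0125, and 0.0563 without deficient library 3).

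Signalling genes below EP2 and EP4 included 26 tested genes, of which 2 rose, 3 fell and 21 did not pass (median log2 fold change -0.0489). PDE4B, a phosphodiesterase that degrades cyclic AMP, measured 8.26, 6.12 and 7.54 FPKM in parental and 30.6, 24.5 and 27.8 FPKM in deficient libraries. It rose 3.78-fold (log2 fold change 1.79, SE 0.13, adjusted p = 0.000223). PDE7A, also a cyclic AMP phosphodiesterase, fell 2.44-fold (adjusted p = 0.00131). CREM, a cyclic AMP-responsive transcription factor with activator and repressor forms, rose 2.03-fold (adjusted p = 0.00161). ADCY3, an adenylyl cyclase, averaged 32 ± 4.52 FPKM in parental and 17 ± 0.339 FPKM in deficient libraries (SD, n = 3 each), a 1.88-fold fall (adjusted p = 0.00324). GNAI1, an inhibitory G protein subunit, was lower by 1.46-fold (adjusted p = 0.0313), which no longer passed without any single library but parental 2 (highest adjusted p = 0.133). GNAS, the stimulatory subunit, was abundant at 762 to 1066 FPKM and did not pass.

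Regulators of PTGS2 transcription and mRNA decay included 18 tested genes, of which 2 rose, 4 fell and 12 did not pass (median log2 fold change -0.0492). FOS, an AP-1 subunit, measured 83.2, 70.4 and 79.1 FPKM in parental and 16.5, 16.7 and 18.9 FPKM in deficient libraries. It fell 4.46-fold (log2 fold change -2.09, SE 0.10, adjusted p = 3.87e-05), and its partner JUN fell 1.36-fold (adjusted p = 0.0226). ZFP36L2, a protein that promotes decay of AU-rich mRNAs, fell 2.23-fold (adjusted p = 0.0016), while its relative ZFP36, known to act on PTGS2 mRNA, rose from 6.58 ± 0.386 to 9.86 ± 1.33 FPKM (SD, n = 3 each, adjusted p = 0.0263). CELF2, an RNA-binding protein that restrains PTGS2 translation, rose 5.43-fold, with means of 0.229 ± 0.0803 in parental and 1.24 ± 0.287 FPKM in deficient libraries (SD, n = 3 each, adjusted p = 0.00437). The parental mean of CELF2 was below the minimum of 0.5 FPKM, which it met only through its deficient libraries. NFATC1 fell 1.77-fold (adjusted p = 0.0201). The calls of JUN, NFATC1 and ZFP36 ended without 5, 4 and 4 of the 6 single libraries (highest adjusted p = 0.109, 0.0872 and 0.121). The NF-kB subunits NFKB1 and RELA and the factor CEBPB did not pass.

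**Figure D4:**
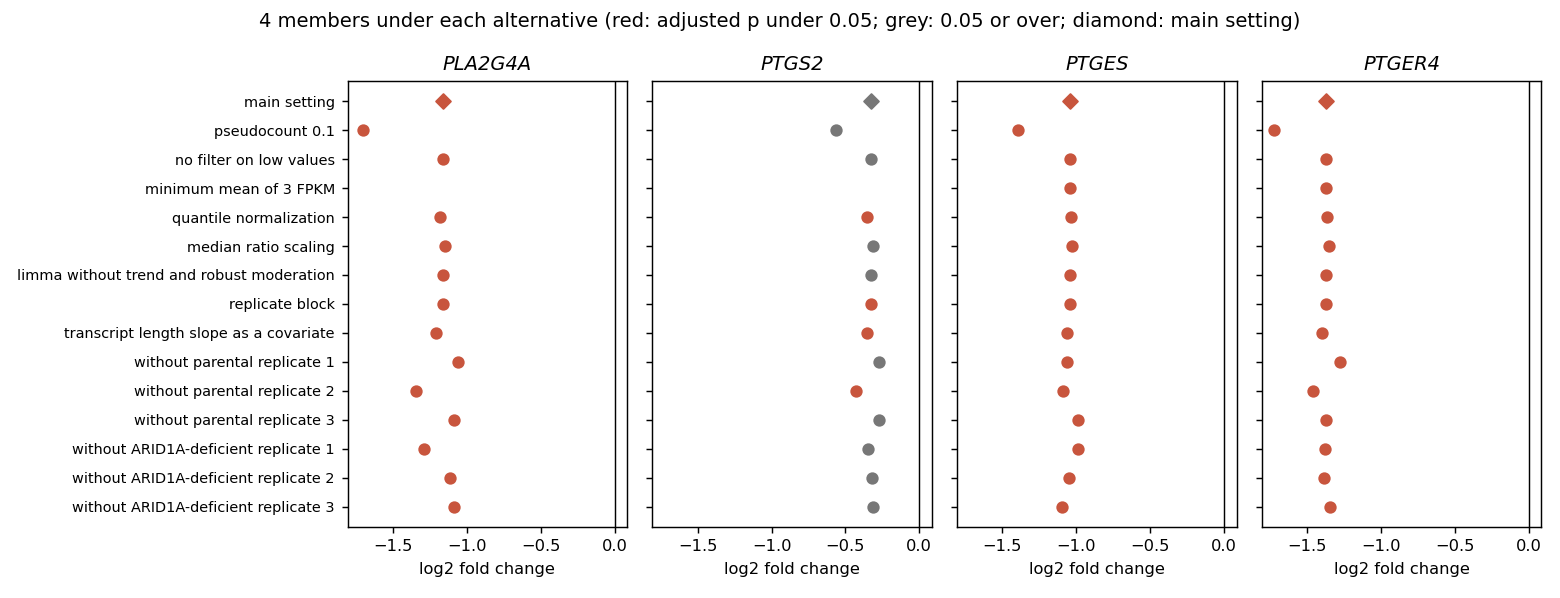
Log2 fold change (horizontal axes) of PLA2G4A, PTGS2, PTGES and PTGER4 under each processing alternative (rows), with the main setting as a diamond. Red marks an adjusted p under 0.05 and grey 0.05 or over; PLA2G4A and PTGS2 have no point where their mean is below 3 FPKM. PLA2G4A, PTGES and PTGER4 stay red in every row drawn, while PTGS2 is red in 4.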

How the data were processed

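The authors deposited 1 table per library with gene symbols and FPKM values. The submitters' processing notes name Cuffdiff 2.2.1.5, Cuffnorm 2.2.1.2, TopHat2 2.1.1 and GRCh37 (hg19). The sources used here state no annotation, filter or scaling option, and an exact 0 can be a failed estimate. Per the labels' protocols, polyadenylated RNA was prepared with a TruSeq version 2 kit.

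Of 23273 rows, 28 whose symbol had become a date were left out. limma 3.58.1 (R 4.3.3) with trend and robust moderation was fitted to log2(FPKM + 1) of all 6 libraries, with group as the only term and a minimum mean of 0.5 FPKM. P-values are two-sided. The procedure was also run on simulated data with noise drawn independently for each gene and library. Such data hold no deviations shared across the genes of a library, so they cannot speak to the changes when single libraries were left out. Relative depth is the modal ratio of rows under 0.2 FPKM in every library, in bins of 0.05 on the log2 scale. Values were called whole steps within 0.15 of a step. Transcript lengths are medians over GENCODE transcripts, matched for 96.2% of tested genes, and gene order follows RefSeq, matched for 97.1%. Of the 10 members, all matched the RefSeq promoter table.

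The members and lists were chosen with earlier results of these data known. Named genes are the members, ARID1A, and up to 4 called genes with the smallest adjusted p per list, beside markers and low genes given as background. JUN, ZFP36, GNAI1, GNAS, NFKB1, RELA, CEBPB, CD68, CDH5, PECAM1, SOX9, CLDN4, C1orf27, DAB2, TTC33, ABCC4 and RGS2 were named after their values were seen. Alternatives covered the pseudocount, the filter on low values, scaling, moderation, a length covariate, the replicate number as a block and each library left out.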

Additional observations from a re-analysis of the deposited data

How the results depend on the processing

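Under 14 alternatives PTGES and PTGER4 stayed lower and past the threshold in limma (highest adjusted p = 0.00863 and 0.00634), and PLA2G4A did so under the 13 that tested it. PTGS2 stayed lower under its 13 alternatives and passed in 4, one of them the replicate block (adjusted p = 0.0431). PTGES2 and PTGR1 stayed lower and not past the threshold under all 14. PTGES3 reversed to -0.039 with quantile normalization, and over single libraries left out its log2 fold change ran from -0.0414 (without parental library 1) to 0.0813 (without parental library 2) and was also negative, at -0.0211, without deficient library 2. The members called lower were 2 to 4.

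A pairing by replicate number was not established: same-numbered libraries deviated together with r = 0.219, 0.217 and -0.0131 for numbers 1, 2 and 3, and not every library correlated best with its own number. With the replicate block, 1861 genes were higher and 2188 lower, against 1003 and 1040 without it, and 17 genes of the pathway lists were lower against 10. With a minimum mean of 3 FPKM, 667 genes and 5 of the pathway lists were higher, with fewer genes tested. Leaving out single libraries gave 522 (without deficient library 3) to 2009 (without parental library 2) genes higher and 438 to 2104 lower, and 5 to 17 genes of the pathway lists lower, with the same libraries at the ends. The cause was not tested. Scaling moved the median of all genes by less than 0.1. FPKM hides the depth per gene, so values near 0 limit HPGD, PTGS1 and PTGER2.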
